A study of Gallus gallus with 10 samples.

Results

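Chicken embryos 76 and 81 were compared with embryos 77, 79 and 82, a grouping that was chosen from the RNA values themselves and is given by no label. The sets were defined by component 1 of the log2 expression values, on which both otocysts of embryos 76 and 81 lie apart from those of the other embryos. The comparison uses all 10 libraries of the series, 4 from embryos 76 and 81 and 6 from embryos 77, 79 and 82. Since the same values chose the sets, every difference in expression between them is given below as a description, with no test.

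All embryos were White Leghorn at embryonic day 2.5. The otocyst is the epithelial vesicle that forms the inner ear. The right otocyst of each embryo was cultured for 24 h with 300 µM IWR-1, an inhibitor of tankyrase that lowers canonical Wnt signalling, and the left one with the solvent DMSO. Embryos 76 and 81 thus give 2 IWR-1 and 2 DMSO libraries, and embryos 77, 79 and 82 give 3 of each. Libraries are named by embryo and side, so that 76R is the IWR-1 library and 76L the DMSO library of embryo 76. Treatment goes with body side in every embryo, and the 2 otocysts of an embryo are not independent, so the sets rest on 2 embryos against 3. Each library came from a single otocyst cleaned of mesenchyme, as bulk RNA, so fewer cells of a type and less RNA per cell cannot be told apart. The sex of the embryos is not labelled.

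In birds the female carries 1 Z and 1 W chromosome and the male a pair of Z chromosomes. Genes of the W are expressed in females and have no copy in males, although many keep a related copy on the Z. The chicken has no chromosome-wide silencing of a Z in males, so that many Z genes are expressed at a higher level in males than in females. A contrast of ZW with ZZ embryos would therefore hold transcripts found on one side alone together with many modest differences the other way. The question was how far the contrast of these embryos has that shape. Which transcripts lie on the Z or the W is not known here, since the deposited tables carry transcript IDs alone and the reference gene table (assembly GRCg7b) matched 0 of the 25747 IDs. Markers of the otocyst or of other tissues could not be looked up for the same reason, and no sequence is shown.

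The sets overlapped in each measure of library quality. Total estimated counts were 24470010 to 28469249 in embryos 76 and 81 and 24551355 to 28572053 in embryos 77, 79 and 82. Transcripts with at least 1 count numbered 20208 to 20440 in embryos 76 and 81 and 20007 to 20450 in embryos 77, 79 and 82. The 20 most abundant transcripts held 8.79% to 9.33% of counts in embryos 76 and 81 and 8.38% to 9.19% in the others. Averaged per embryo, the depth, the transcripts detected, the share of the top 20 and the share of counts divided among transcripts gave two-sided exact permutation p-values of 0.6 to 1 (adjusted p = 1 for all 4 measures). With 2 embryos against 3 the smallest p possible is 0.2, so this test could not have passed.

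Component 1 held 23.4% of the variance of log2 CPM (counts scaled to library size) over 18009 transcripts that passed the expression filter. The 4 libraries of embryos 76 and 81 scored 54.9, 55.6, 59.5 and 60.5, and the 6 of embryos 77, 79 and 82 scored -46.03 to -32.8, so that a wide empty interval separates the sets. These are the values that defined the sets. The component rests on few transcripts. The 235 transcripts found higher without overlap below held 52.1% of its squared loadings and the 495 lower ones 5.28%. The 41 transcripts described next, 0.228% of those in the analysis, carried 27.1% of its squared loadings. On component 2, with 13.5% of the variance, the sets overlapped, at -40.4 to 42.01 in embryos 76 and 81 and -37.7 to 57.3 in embryos 77, 79 and 82.

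**Figure D1:**
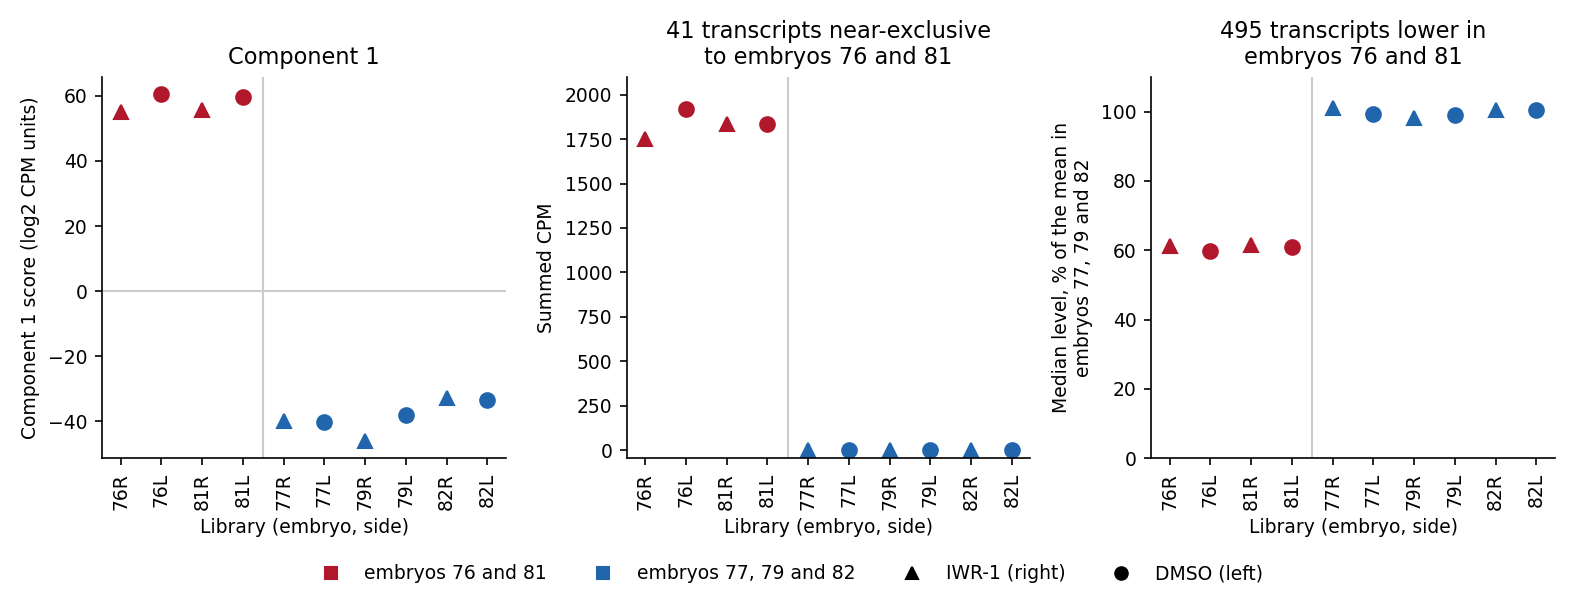
Component 1 score, summed CPM of the near-exclusive transcripts, and median level of the lower transcripts as a percentage of their mean in embryos 77, 79 and 82, for each of the 10 libraries. Triangles are IWR-1 (right) and circles DMSO (left) otocysts, red for embryos 76 and 81 and blue for the others. In all 3 panels the red points lie close together and apart from the blue ones; the summed CPM is 1750 to 1920 in red and at most 0.42 in blue.

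The clearest feature was a group of transcripts present in both otocysts of embryos 76 and 81 and nearly absent from the rest. Near-exclusive was taken to mean at least 10 counts in every library of one set and at most 3 in every library of the other. By this rule 41 of 25747 transcripts, or 0.159%, were near-exclusive to embryos 76 and 81. In the other direction there was 1 transcript, or 0.00388%. The 41 together had 47073 (76R), 47518 (76L), 50884 (81R) and 50410 (81L) counts in embryos 76 and 81. In embryos 77, 79 and 82 the same 41 had 2 (77R), 4 (77L), 5 (79R), 11 (79L), 12 (82R) and 10 (82L) counts. They made up 0.177% to 0.194% of all counts in embryos 76 and 81, with little spread between the 2 embryos or the 2 sides.

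Within this group the levels spanned a wide range. Of the 41, 12 averaged at least 1000 counts over the 4 libraries of embryos 76 and 81, 19 averaged 100 to 1000 and 10 averaged less than 100, with 543 as the median and 9383 as the highest value. For 28 of them every library of embryos 77, 79 and 82 held less than 0.5 of a count, and for the other 13 the highest value was 2.85. With the summed count of embryos 77, 79 and 82 set to at least 3, the ratio of the sets had a median of 1070 and was over 100 for 35 of the 41. The 2 most abundant transcripts held 36.3% of the group's counts and the top 10 held 75.7%. Neither embryo of the set was favoured, as 21 of the 41 averaged higher in embryo 76 and the others in embryo 81.

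Just inside the rule, the lowest count in embryos 76 and 81 was 17.03. Just outside it, 22 more transcripts had at least 10 counts in every library of embryos 76 and 81 and between 3 and 10 in the highest library of the other embryos. Most of the group had counts with decimals, which show reads divided among several transcripts. Transcripts with no decimals in any of the 10 libraries are termed whole-count and the rest split-count, and 1 of the 41 was whole-count, against 35.6% of all transcripts tested. In 4 sets of rows, 9 rows in all, the counts were the same in every library, so the 41 hold 36 distinct count profiles. The 41 had a median length of 907 bases, against 1726 over all transcripts, and 41 of 41 had IDs at version 1, against 59.7% of all.

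ENSGALT00000051715.1 had the widest gap between the sets. It was at 317 (76R), 325 (76L), 309 (81R) and 305 (81L) CPM in embryos 76 and 81 and at 0 counts in all 6 libraries of embryos 77, 79 and 82. The means were 313.7 ± 8.99 CPM (SD, n = 4 libraries of 2 embryos) and 0 CPM. Against a floor of 3 counts over the 6 libraries this is at least 16500-fold higher in embryos 76 and 81. Per length its mean level was 440.3 TPM (a level scaled to transcript length) in embryos 76 and 81. Counts carried decimals in the 4 libraries that held any.

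ENSGALT00000065640.1 came next. It had 326 (76R), 405 (76L), 329 (81R) and 351 (81L) CPM in embryos 76 and 81, and a summed rounded count of 2 over the 6 libraries of embryos 77, 79 and 82. Those 6 libraries held 0.00708 (77R) to 0.849 (82L) of a count each, which are shares of divided reads, so no interval is given. With the floor of 3 counts the ratio of the sets is 18500, the highest of the 41. At the same floor ENSGALT00000051715.1 is at 16500. The mean level per length of ENSGALT00000065640.1 was 322 TPM in embryos 76 and 81 and 0.0126 TPM in the others. Both transcripts were thus abundant in each otocyst of embryos 76 and 81 and at or near 0 in each otocyst of the others.

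**Figure D2:**
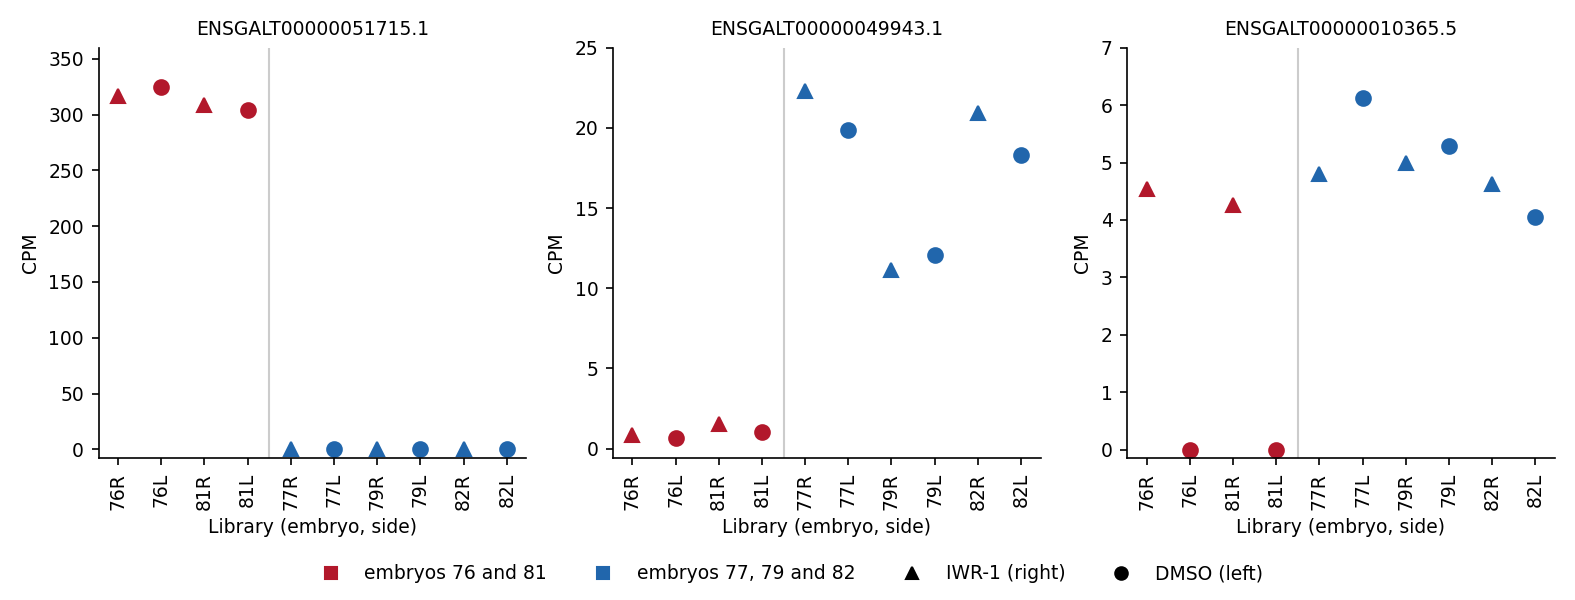
CPM of 3 transcripts in each library, with red for embryos 76 and 81, blue for embryos 77, 79 and 82, triangles for IWR-1 and circles for DMSO. The left transcript is at 305 to 325 CPM in embryos 76 and 81 and at 0 in the others, the middle one is at 0.687 to 1.51 CPM in embryos 76 and 81 and at 11.1 to 22.3 CPM in the others, and the right one is at 0 in the DMSO otocysts of embryos 76 and 81 alone.

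Beyond presence and absence, the sets were compared by counting transcripts whose libraries did not overlap. All 4 libraries of embryos 76 and 81 lay above all 6 others in 235 of 18009 transcripts, or 1.3%, and below all 6 in 495, or 2.75%. Nothing is read from these shares on their own, because the sets were chosen on the same values. The lower transcripts outnumbered the higher ones under each scaling tried, the deposited TPM included, at 471 to 505 lower and 221 to 251 higher. These scalings all keep the otocysts of an embryo as separate libraries. On sums per embryo the numbers were nearly equal, at 1906 lower and 1782 higher, so the size of the excess depended on the unit counted. Fewer libraries leave more transcripts without overlap. Without embryo 76, 77, 79, 81 or 82 the higher transcripts numbered 1147, 464, 497, 845 or 464. In the same order the lower ones numbered 1222, 687, 711, 1040 or 711, of 17602 to 18935 transcripts tested.

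The 2 directions differed in the size of the differences. Among the 495 lower transcripts 383, or 77.4%, had a log2 difference between 0.3 and 1 in size, 83 were past 1 and 9 past 3. Among the 235 higher transcripts 79, or 33.6%, were between 0.3 and 1, 118 past 1 and 84 past 3, the 41 near-exclusive ones included. The median log2 difference of the lower transcripts was -0.75, with quartiles of -0.92 and -0.55, so that the median level in embryos 76 and 81 was 59.4% of that in embryos 77, 79 and 82. The median of the higher transcripts was 1.002, or 0.57 without the near-exclusive ones. Under other scalings of the counts, each with its list picked anew, it was 0.74 to 1.15. Over all 18009 transcripts tested, overlapping ones included, the median difference was 0, and 445 (2.47%) were higher and 532 (2.95%) lower by more than 1, while 120 (0.666%) were higher and 44 (0.244%) lower by more than 3.

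**Figure D3:**
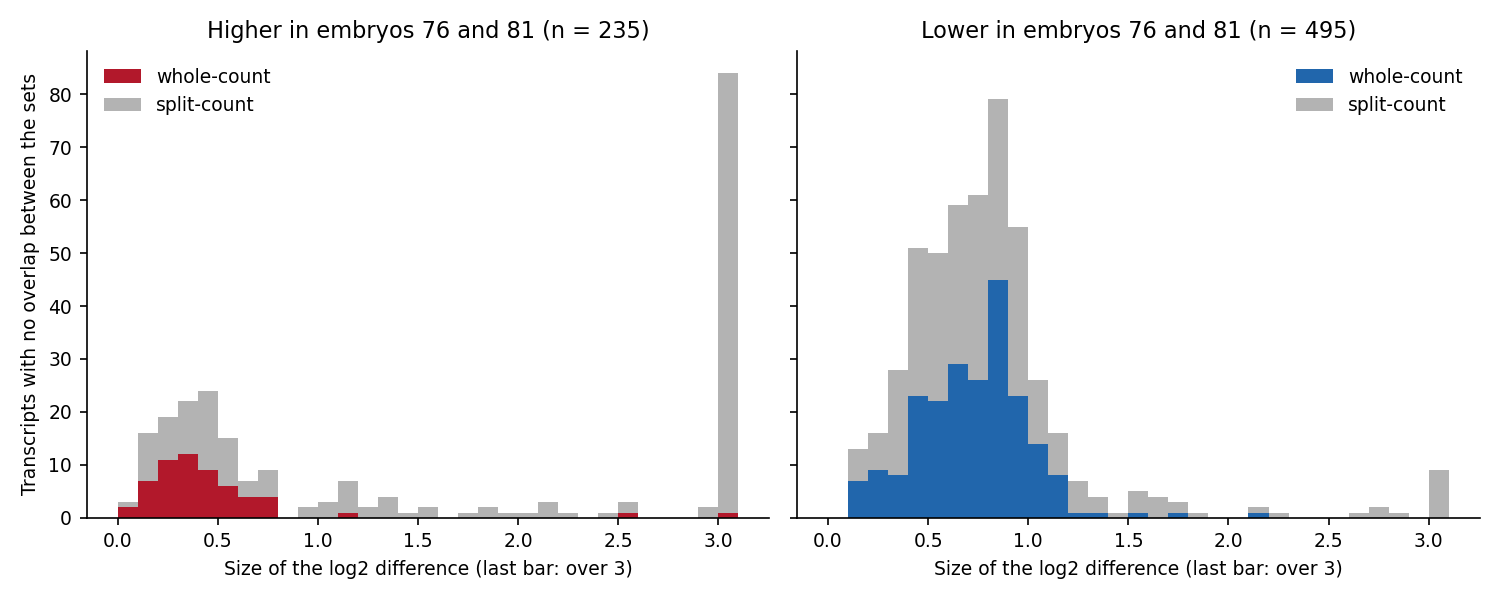
Number of transcripts with no overlap between the sets, by size of the log2 difference in steps of 0.1, for those higher (left) and lower (right) in embryos 76 and 81; coloured bars are whole-count and grey bars split-count transcripts, and the last bar holds all past 3. The left panel has 84 transcripts past 3, and the right panel peaks between 0.8 and 0.9 with 79 transcripts.

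The contrast of sizes lay in the split-count transcripts, of which 65.0% of the higher and 20.3% of the lower ones were past 1, against 5.17% of the higher and 12.3% of the lower whole-count ones. Of the 219 lower whole-count transcripts, 176 lay between 0.3 and 1 and 0 past 3, with a median of -0.73. The most filled step of 0.1 was 0.8 to 0.9, with 45 of them. Of the 58 higher whole-count transcripts, 20 were under 0.3 and 3 past 1, with a median of 0.37. Split-count transcripts held 115 of the 118 higher ones past 1. Of the 84 past 3, 43 were not near-exclusive. In each of those the highest library of embryos 77, 79 and 82 held more than 3 counts, with a median of 13.4, and the mean level there was a median of 0.599% of that in embryos 76 and 81.

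The size of the difference of the lower transcripts is given here by library. That each library and each pair of embryos shows the same direction is fixed by their choice. Relative to their mean in embryos 77, 79 and 82, their median level was 61.2% (76R), 59.7% (76L), 61.4% (81R) and 60.95% (81L) in embryos 76 and 81, against 98.0% to 101% in the 6 libraries of embryos 77, 79 and 82. Together they held 2.32% to 2.40% of all counts in embryos 76 and 81 and 3.72% to 3.89% in the others. For each of the 6 pairs of 1 embryo from either set the median log2 difference lay between -0.75 and -0.68. Between embryos of 1 set the same transcripts differed by a median of 0.092 to 0.136 in size, which is below the median over all tested transcripts (0.182 to 0.238). This too is partly set by their choice.

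The size of the difference changed little with abundance. The 495 were divided by mean count into 3 parts of 165. The least abundant part (7.9 to 285.6 counts) had a median log2 difference of -0.83, the middle part -0.71 and the most abundant part (1393 to 46410 counts) -0.73. For the 194 higher transcripts outside the near-exclusive group the median was 1.14 in the least abundant part. It was 0.53 in the middle part, which was mixed (upper quartile 4.6), and 0.37 in the most abundant part. A scarce transcript needs a larger difference to leave no overlap, so such medians are partly set by the choice of transcripts. The lower transcripts had a median length of 1750 bases, close to the 1905 of all transcripts tested, and 44.2% of them were whole-count.

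The widest gaps in this direction were not typical of the group. ENSGALT00000049943.1 was at 0.818 (76R), 0.687 (76L), 1.51 (81R) and 1.06 (81L) CPM in embryos 76 and 81. It was at 22.3 (77R), 19.9 (77L), 11.1 (79R), 12.05 (79L), 20.9 (82R) and 18.3 (82L) CPM in the others. The means were 1.02 ± 0.364 CPM (SD, n = 4 libraries) and 17.4 ± 4.73 CPM (SD, n = 6 libraries), a fitted log2 difference of -4.09 or 17.1-fold lower in embryos 76 and 81. Embryo 79 stood below 77 and 82 in both otocysts and still lay far above embryos 76 and 81. ENSGALT00000054964.1, the other transcript named by the same rule, had the same counts in every library and the same length of 624 bases, so the 2 rows are 1 measurement.

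The contrast was then taken in each treatment alone, 2 libraries against 3. For the lower transcripts the median log2 difference was -0.74 in the IWR-1 libraries and -0.74 in the DMSO libraries. For the higher transcripts outside the near-exclusive group it was 0.61 in the IWR-1 libraries and 0.53 in the DMSO libraries. The shared direction is fixed by the choice of transcripts that do not overlap, so these medians describe sizes and support nothing further.

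**Figure D4:**
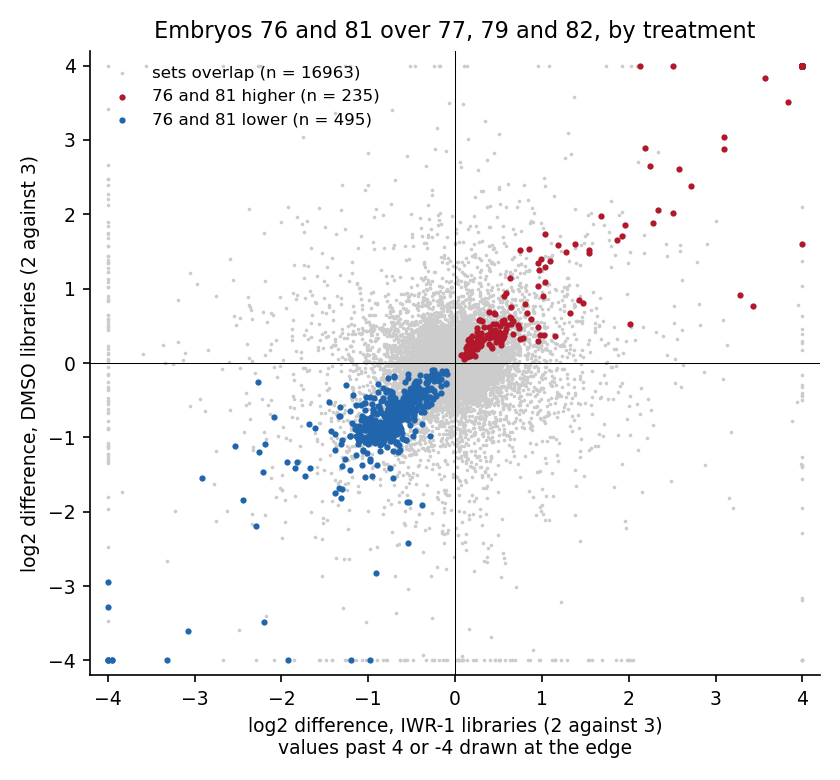
The log2 difference of embryos 76 and 81 over embryos 77, 79 and 82 in the IWR-1 libraries (x axis) and in the DMSO libraries (y axis), 1 point a transcript; red and blue mark the 235 higher and 495 lower transcripts without overlap, grey the rest, and values past 4 in size are drawn at the edge. The blue points gather between 0 and -1 on both axes and a block of red points sits at the upper right edge.

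Whether the otocysts of the 2 sets responded differently to IWR-1 is a question within embryos that the choice of sets did not use, and it was tested across all 18009 transcripts. In edgeR's quasi-likelihood test of the interaction 1 transcript passed an adjusted p of 0.05, or 0.00555%, and 343 had an unadjusted p under 0.05. This fit leaves out the pairing of otocysts by embryo. With IWR-1 set against DMSO within embryos 76 and 81, 1 transcript passed (0.00555%), the same one. Within embryos 77, 79 and 82 none passed in edgeR (0%), with 820 at an unadjusted p under 0.05 and 45 called by DESeq2. With the embryo as a block edgeR called 0 in all 3 tests, with 561 transcripts at an unadjusted p under 0.05 for the interaction. For the interaction DESeq2 called 25 transcripts and limma-voom 0. With the embryo as a block DESeq2 called 82 for the interaction, 219 in embryos 76 and 81 and 297 in embryos 77, 79 and 82. With the same block limma-voom called 0 in each. On the 6410 whole-count transcripts alone, edgeR with the block called 0, 4 and 4 in the same order. The number of calls thus depended on the tool and on the transcripts tested.

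None of the 495 lower and none of the 235 higher transcripts passed the interaction test in edgeR with or without the block, beside 0.00555% of all. At that share, lists of this size would hold no call in most cases, so their 0 has no weight. Both lists were also chosen on the same libraries, and a wide gap between IWR-1 and DMSO within a set makes overlap more likely. An unadjusted p under 0.05 was reached by 3.03% of the lower, 0.426% of the higher and 1.9% of all transcripts. These shares are partly set by the same choice. In addition, the higher list holds the 41 near-exclusive transcripts, of which 0 reached that p. They are at or near 0 in embryos 77, 79 and 82, where no change with IWR-1 can be measured. The median log2 change with IWR-1 was 0.02 for the lower transcripts in embryos 76 and 81 and 0.005 in embryos 77, 79 and 82. For the near-exclusive transcripts in embryos 76 and 81 it was -0.01. These values describe the lists and cannot show whether their response to IWR-1 differed between the sets.

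The transcript that passed the interaction test was ENSGALT00000010365.5, named here after its values were seen. In embryos 76 and 81 it had 122 (76R) and 118 (81R) counts with IWR-1 and 0.0605 (76L) and 0.0472 (81L) with DMSO, which is at least 76.6-fold higher with IWR-1 against a floor of 3 counts over both DMSO libraries. In embryos 77, 79 and 82 it had 123, 133 and 131 counts with IWR-1 and 150, 139 and 107 with DMSO, a ratio of 0.937. The adjusted p of the interaction was 0.0041 in edgeR's quasi-likelihood test without the embryo block, which leaves out the pairing of otocysts. With the block it was 0.565. The fitted log2 interaction was 9.96 without the block and 9.94 with it. Both DMSO libraries of embryos 76 and 81 round to 0, so both sizes depend on the prior count and their closeness carries no weight. In the same edgeR test no interaction passed without embryo 77 or 79, where the smallest adjusted p was 0.107 or 0.237. Fits without embryo 76 or 81 leave no spread between embryos within that set and are not given here. Without embryo 82 there were 2 calls, with a smallest adjusted p of 0.00736. These numbers are over all transcripts and do not name the ones called. The DMSO otocysts of embryos 76 and 81 thus lacked a transcript that the other 8 libraries held at 107 to 150 counts. Its counts carried decimals, and the part of divided reads in this result was not tested.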

How the data were processed

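RNA from 10 single otocysts of 5 chicken embryos was sequenced with 75-base reads, per the labels' protocols. Tools named in the submitters' processing notes are kallisto and bcl2fastq, and the genome build named there is GRCg6a; tool versions are not stated. The deposited files give an estimated count per transcript, not normalised, in which reads shared by several transcripts are apportioned, and a TPM value that the authors' software scaled to length. The files hold 25747 Ensembl transcripts and 9 construct sequences, which were left out. Estimated counts were rounded. Whether molecular identifiers were used is not stated.

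The members and lists were chosen with earlier results of these data known. In R 4.3.3 with edgeR 4.0.16, TMM scaling and the default filter left 18009 transcripts. The log2 difference came from the fit with treatment and embryo set as terms, and overlap was judged on log2 CPM with a prior count of 2. The interaction was tested with edgeR's robust quasi-likelihood test, two-sided, with Benjamini-Hochberg adjustment over all transcripts. A run on simulated counts held no embryo effect, so it does not bear on the pairing of otocysts. DESeq2 1.42.0 and limma 3.58.1 were alternatives. Samples are paired by embryo number, as an embryo gave both of its otocysts. Deviations from the treatment means correlated at 0.202 to 0.269 within embryos. They correlated at 0.0167 to 0.222 between embryos of the same set, a range that overlaps the first. Between embryos of different sets they correlated at -0.215 to -0.0909. With no gene names, the 2 transcripts in each direction with the widest gap between the sets, at a mean count of at least 100, are named. Gene lists that need names were not run.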

Additional observations from a re-analysis of the deposited data

Results flagged for a closer look

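In the fit without the embryo block, which leaves out the pairing of otocysts, ENSGALT00000010365.5 passed the test of the interaction. The fitted interaction was 9.96 on the log2 scale. The edgeR adjusted p was 0.0041, and 0.565 with the embryo block. The transcript was higher with IWR-1 in 2 of 2 embryos of the set 76 and 81, by a fitted log2 change of 9.86. Both DMSO libraries of that set round to 0, so both fitted sizes depend on the prior count and are given with no error. The transcript was higher in 1 of 3 embryos of the set 77, 79 and 82, with a log2 change of -0.10 (SE 0.21). No library stood apart from the others of its set in the 25 groups of values examined.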

How the results depend on the processing

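The counts of near-exclusive transcripts in favour of embryos 76 and 81 were 28 to 52 under most alternatives, 63 when up to 10 counts were allowed in the other set and 1 among whole-count transcripts. In favour of embryos 77, 79 and 82 they were 3 with up to 10 counts allowed, 0 with at least 50 counts required, 0 among whole-count transcripts, and 2 to 9 without 1 embryo. Counting rows with the same counts once, an alternative added after the data were seen, gave 36 and 1.

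Transcripts without overlap numbered 60 higher and 219 lower among whole-count transcripts. With fewer values to part, they were 1782 and 1906 on sums per embryo, 1701 and 1948 in the IWR-1 libraries, 1621 and 1777 in the DMSO libraries, and 464 to 1147 higher and 687 to 1222 lower without 1 embryo. With so few values, many transcripts can part the sets by chance alone. The number parted by other divisions of the embryos was not tested, so the counts on sums per embryo and in each treatment show no excess. The median log2 difference of the higher transcripts was 1.15 with upper-quartile scaling, 0.74 with library size alone, 0.55 and 0.86 as log2(TPM + 1) and log2(TPM + 0.1), 0.37 on whole-count transcripts and 0.47 to 0.56 without 1 embryo. That of the lower transcripts was -0.64 as log2(TPM + 1) and -0.72 to -0.60 without 1 embryo. The TPM medians kept the main lists. In every other alternative the lists were picked anew, so those medians do not follow the same transcripts. Without 1 embryo the lists were longer, as counted above. No direction was reversed in any alternative run, but the transcripts were picked by direction, so this outcome was fixed and carries no weight.

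The calls for the interaction, for IWR-1 in embryos 76 and 81 and for IWR-1 in embryos 77, 79 and 82 were 0, 0 and 0 with the replicate block, 25, 43 and 45 with DESeq2, 0, 0 and 0 with limma-voom and at a mean count of at least 500, and 0, 4 and 4 on whole-count transcripts with the replicate block. Added after the data were seen, DESeq2 with the block gave 82, 219 and 297, and limma-voom with the block gave 0, 0 and 0. Without 1 embryo the first 2 were 0 to 2 and the third 0; without embryo 76 or 81 that set holds 1 embryo, which is assumed to vary like the others. ENSGALT00000010365.5 is split-count and had at most 150 counts in any library. The runs at a mean count of at least 500 and on whole-count transcripts therefore did not test it and could not call it. Apart from this and the smaller number of libraries, the cause of the changes in the calls was not tested. With 2 embryos against 3, modest responses could be missed.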

Other observations

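The 1 transcript near-exclusive to embryos 77, 79 and 82 was scarce, at 45.7 (77R), 58.6 (77L), 29.05 (79R), 23.8 (79L), 35.8 (82R) and 35.1 (82L) counts, and at under 0.01 of a count in the 4 libraries of embryos 76 and 81. The added construct sequence NICD1 was at 20.6 to 45.9 CPM in embryos 76 and 81 and at 38.3 to 56.5 CPM in embryos 77, 79 and 82, so the sets overlapped. Embryo 81 had the lowest values, at 20.6 CPM in the IWR-1 and 24.8 CPM in the DMSO otocyst. Its counts carried decimals, so the reads were divided with other sequences.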
